A study of Mus musculus with 8 samples.

Results

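Adipose-derived stem cells of the subcutaneous inguinal depot (SWAT) were compared with those of the epididymal depot (EWAT), the visceral fat pad beside the testis. The comparison covers every listed gene in the libraries whose table columns carry the letter of 1 of these depots, 2 libraries a side, which are 4 of the 8 in the series. Both groups were sorted by flow cytometry from collagenase-digested fat of C57BL/6J mice, which were male, wild-type and fed chow, with no transgene, deletion or agent named for either. The 2 libraries of the NWAT depot entered the fit only to help estimate the spread. The sources used here do not give the surface markers of the gate, the age of the mice, or whether a library held 1 animal or several. The p-values therefore measure only the spread between these libraries, which may be technical.

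Adipose stem cells are fibroblast-like mesenchymal cells that lie around vessels and in the connective tissue septa of fat. They renew themselves, secrete most of the matrix of the tissue and can form new adipocytes through the nuclear receptor PPARG. Inguinal fat forms under the skin from trunk and limb mesenchyme. Epididymal fat forms inside the abdomen beside mesothelium-covered gonadal tissue, and transcription factors of the embryo stay active in each depot in the adult.

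The 4 libraries held between 20346500 and 20638684 estimated counts, with 15858 to 16109 genes detected. Of 20 markers that define adipose stem cells, all were detected in both depots. Pdgfra, the surface receptor most used to recognise these cells, stood at 1233 and 1174 CPM in SWAT and 1165 and 936 CPM in EWAT, and the interval of its log2 difference between the depots ran from -0.09 to 0.48. Cd34, Lum, Dpt and Vim were not called either, while 9 of the 20 were called higher in SWAT and 4 in EWAT. The leukocyte marker Ptprc had 5 and 5 counts in SWAT and 18 and 19 in EWAT, the lymphatic endothelial marker Prox1 had 36 and 33 in SWAT and 28 and 40 in EWAT, and the keratin gene Krt5 had 0 in all 4. All 20 endothelial markers were tested, with 4 called higher in SWAT and 2 in EWAT, and their summed level was 533 and 543 CPM in SWAT and 600.1 and 619.6 CPM in EWAT. Skeletal muscle markers summed to 15.2 and 13.4 CPM in SWAT and 99.5 and 104.2 CPM in EWAT. Of 5 tested, 1 was higher in SWAT and 2 in EWAT. Testis and germ cell markers summed to 31.1 and 34.0 CPM in SWAT and 92.3 and 96.6 CPM in EWAT. Of 3 tested, 0 were higher in SWAT and 1 in EWAT. Of 3 epithelial markers tested, 2 were higher in SWAT and 0 in EWAT. The part of endothelial, muscle, germ or epithelial cells in the differences given here was not tested. In bulk libraries, fewer cells of a type and less RNA per cell cannot be told apart. Levels are CPM, counts scaled to the library size after TMM adjustment. A positive log2 fold change means higher in SWAT, and a gene was called at a Benjamini-Hochberg adjusted p under 0.05 in edgeR's quasi-likelihood test.

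The depots differed in a large share of the transcriptome, in both directions. Of 13694 genes tested, 5020 were called (36.7%), of which 2465 (18.0%) were higher in SWAT and 2555 (18.7%) in EWAT. Counts of calls in the gene lists are to be read beside these shares. At least 2-fold differences were called for 1615 genes (11.8%), 764 higher in SWAT (5.58%) and 851 in EWAT (6.21%). Differences of at least 8-fold were called for 155 and 216 genes, and of at least 32-fold for 42 and 67. Both libraries of 1 depot lay beyond both of the other for 70.0% of the genes tested. The balance of the calls depends on the scaling: with library totals in place of TMM factors the median log2 fold change moved by -0.236, and 20.9% of the calls were higher in SWAT instead of 49.1%. On log2(FPKM + 1) values that share was 20.1%. Leaving out SWAT replicate 1 or 2 left 3211 and 3085 calls.

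**Figure D1:**
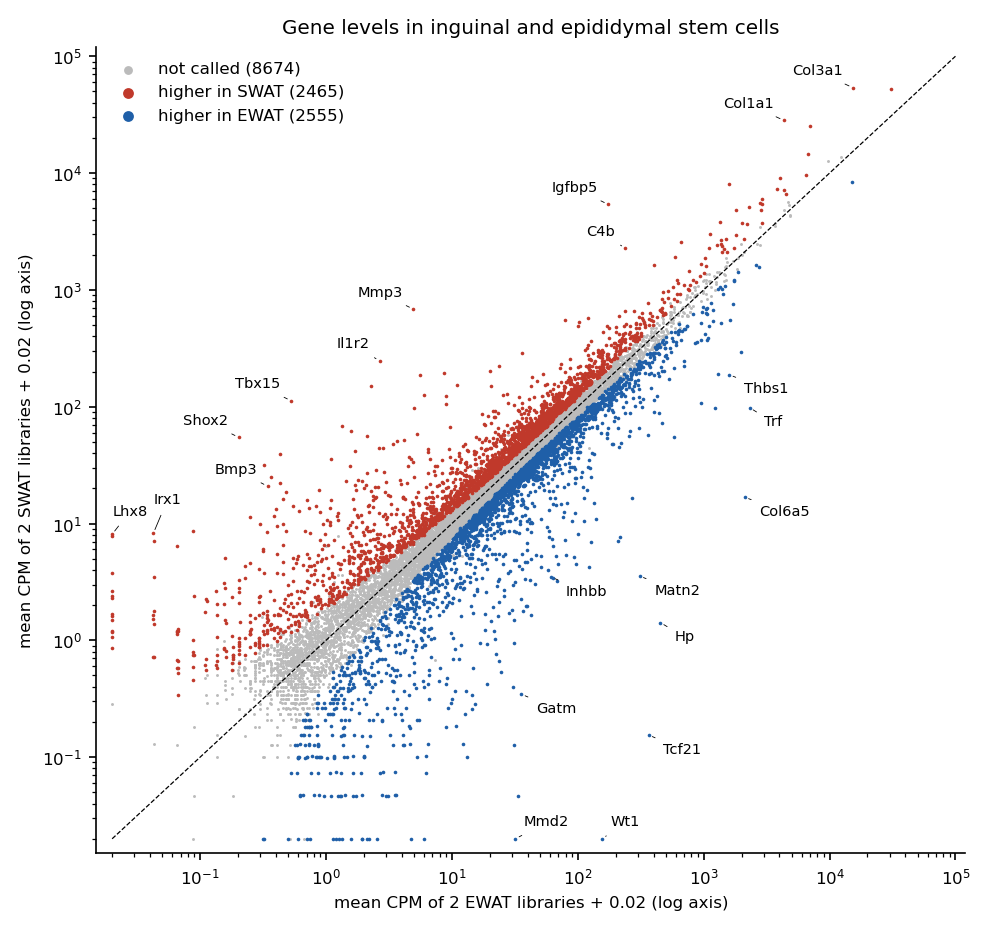
Mean CPM of the 2 SWAT libraries (vertical, log axis) against the mean of the 2 EWAT libraries (horizontal, log axis), 1 point per gene tested, with 0.02 added so that genes at 0 can be drawn. Red points are the 2465 genes called higher in SWAT, blue points the 2555 called higher in EWAT and grey points those not called. Lhx8 sits at the EWAT floor, and Wt1 and Mmd2 sit at the SWAT floor.

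Transcription factors included the largest fitted difference in each direction, Lhx8 towards SWAT and Wt1 towards EWAT. Lhx8, a LIM homeobox factor of craniofacial and forebrain development, stood at 7.79 and 8.33 CPM in the SWAT libraries and had 0 counts in both EWAT libraries, which makes it at least 58.6-fold higher in SWAT against a floor of 3 counts per library. Lmx1b, the LIM homeobox factor that gives limb mesenchyme its dorsal identity, stood at 8.44 and 7.28 CPM in SWAT and also had 0 counts in EWAT (at least 57.2-fold higher). Irx1, an Iroquois factor, stood at 8.44 and 7.96 CPM in SWAT and had 0 and 1 counts in EWAT. These 3 homeobox transcripts were present in both inguinal libraries and at 0 or 1 count in the epididymal ones. Pitx1, which specifies the hindlimb, belonged to the same set, with 58 and 40 counts in SWAT and 0 in EWAT. In all, 30 of 50 tested homeobox factors outside the clusters were called higher in SWAT and 8 in EWAT, with a median log2 fold change of 0.88 beside -0.009 over all genes tested.

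The T-box factors Tbx15 and Tbx5 and the homeobox factor Shox2 were also near the floor in EWAT. Tbx15, a factor of skeletal and adipose patterning (chromosome 3, 99240348 to 99354260 on GRCm38.p6), stood at 105 and 119 CPM in SWAT and 0.701 and 0.315 CPM in EWAT. Tbx5, which starts forelimb outgrowth, stood at 36 and 27.7 CPM in SWAT and 0.374 and 0.225 CPM in EWAT, a count ratio of 107-fold (95% counting interval 62.2 to 201). Shox2, a regulator of proximal limb growth, stood at 52.1 and 57.1 CPM in SWAT and 0.14 and 0.225 CPM in EWAT. For these 3 genes the depots did not overlap, which the choice of named genes required and which held for 70.0% of all genes tested. Over the whole list of T-box, forkhead, GATA and SOX factors the calls were even, 13 of 42 higher in SWAT and 14 in EWAT. The count higher in SWAT was 8 without SWAT replicate 1 and 8 without SWAT replicate 2.

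EWAT cells carried factors of the coelomic lining and gonadal mesenchyme. Wt1, which is required for the kidney, gonad and mesothelium, had 0 counts in both SWAT libraries and 3250 and 3581 in EWAT, at least 969-fold higher in EWAT (chromosome 2, 105126529 to 105173614). Tcf21, a helix-loop-helix factor of visceral mesenchyme (chromosome 10, 22817263 to 22820143), stood at 0.165 and 0.105 CPM in SWAT and 328 and 401 CPM in EWAT. Both genes were at or near 0 in both SWAT libraries. Gata2, a GATA factor that restrains adipocyte formation, stood at 0.329 and 0.264 CPM in SWAT and 10.1 and 10 CPM in EWAT (log2 fold change -5.06 ± 0.30, edgeR adjusted p = 1.55e-07). Gata4, a partner of Wt1 in the gonad, had 0 counts in SWAT and 23 and 29 in EWAT. Trps1, an atypical GATA repressor of cartilage growth, stood at 1.81 and 2.37 CPM in SWAT and 26.5 and 20.5 CPM in EWAT. Alx1, a paired-type homeobox factor, had 0 counts in SWAT and 93 and 113 in EWAT, against the direction of most of its list. Markers of mesothelium moved with these factors: 10 of 14 tested members were higher in EWAT and 2 in SWAT (85.7% called, beside 36.7% over all genes). Wt1 is 1 of the 10. The summed level of the mesothelial list was 1097 and 1014 CPM in SWAT and 1503 and 1570 CPM in EWAT, most of it from Efemp1, and 6 members had 0 counts in both SWAT libraries. The defining marker Msln had 0 and 1 counts in SWAT and 27 and 29 in EWAT, and Upk3b had 2 and 2 and 78 and 70. The part of mesothelial cells in the levels of Wt1 and its companions was not tested.

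HOX genes divided by their position within the clusters. Of 28 tested, 5 were higher in SWAT, all of paralogue groups 9 to 11, and 14 were higher in EWAT, 13 of them of groups 1 to 8. Hoxc10, a posterior gene of lumbar level, stood at 53.2 and 59 CPM in SWAT and 1.91 and 2.25 CPM in EWAT, and Hoxc11 had 30 and 30 counts in SWAT and 0 and 1 in EWAT. Hoxa10 and Hoxa9 were higher in SWAT as well, by 4.53 ± 0.19 and 3.10 ± 0.20 on the log2 scale. In the other direction Hoxa5 stood at 6.91 and 9.55 CPM in SWAT and 31.8 and 36.5 CPM in EWAT (log2 fold change -2.05 ± 0.18). The single posterior gene higher in EWAT was Hoxd9.

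Nuclear receptors and regulators of fat cell formation differed less and in both directions. Pparg, the master regulator of adipogenesis, stood at 36.8 and 49.3 CPM in SWAT and 16.6 and 21.5 CPM in EWAT (2.26-fold higher in SWAT, edgeR adjusted p = 6.35e-04). Prdm16, a regulator of brown and beige fat identity, stood at 8.28 and 8.81 CPM in SWAT and 2.1 and 2.29 CPM in EWAT. Esr1, the oestrogen receptor alpha gene, stood at 116 and 142 CPM in SWAT and 28.2 and 26.8 CPM in EWAT, 4.69-fold higher in SWAT. Among low-level receptors Rorb and Rxrg were higher in SWAT, with count ratios of 36.2-fold (95% counting interval 20.5 to 70.7) and 36.8-fold (95% counting interval 16.6 to 102). On the other side Sox9, which holds back adipocyte maturation, stood at 29.3 and 32.1 CPM in SWAT and 91 and 95.3 CPM in EWAT, and Nr2f1, an orphan receptor of neural and visceral patterning, at 7.68 and 9.65 CPM in SWAT and 26 and 25.9 CPM in EWAT. Nr5a1, the steroidogenic factor of gonad and adrenal, had 0 and 1 counts in SWAT and 20 and 21 in EWAT. Of 29 adipogenic regulators, 10 were higher in SWAT and 7 in EWAT, and the intervals of Ebf2, Nr3c1 and Wwtr1 lay within 0.5 of 0 on the log2 scale. Of 34 nuclear receptors, 9 and 8 were called.

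**Figure D2:**
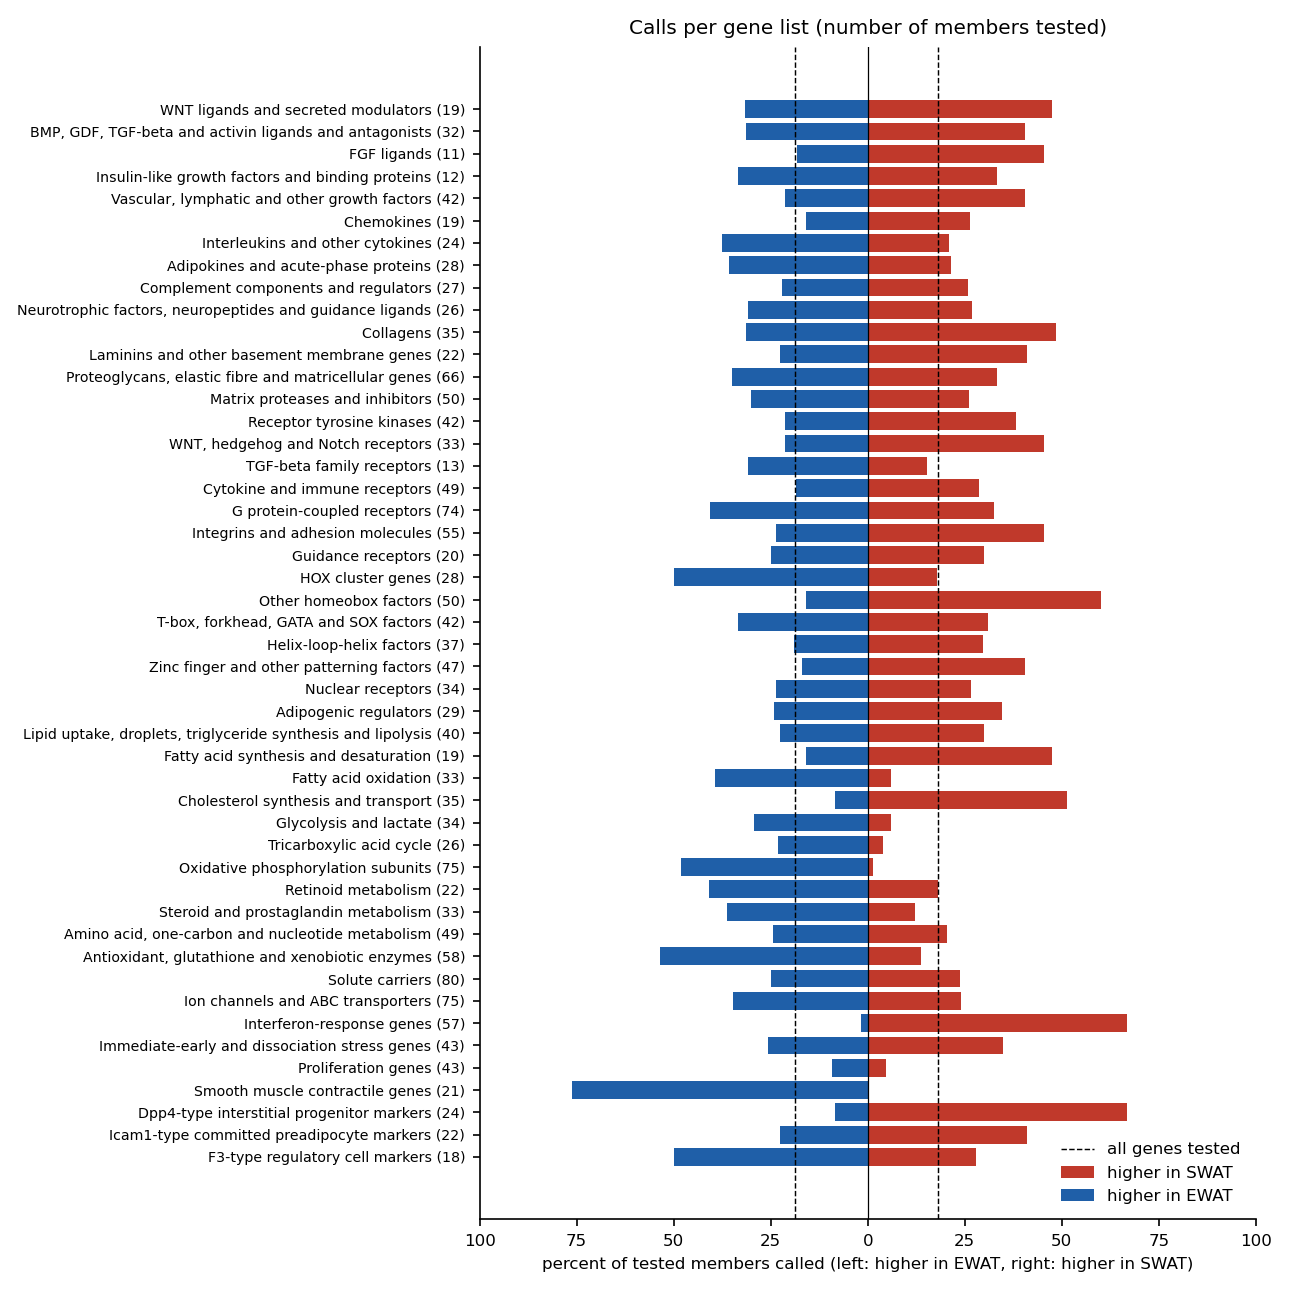
Percent of tested members of each gene list drawn, which leaves out the marker lists of other cell types, called higher in EWAT (blue, left) or in SWAT (red, right), with the number tested in brackets; dashed lines mark the shares over all genes tested, 18.7% and 18.0%. Interferon-response genes, homeobox factors and Dpp4-type markers reach furthest to the right of the lists drawn, and smooth muscle contractile genes and antioxidant enzymes furthest to the left.

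Secreted factors were called in both directions, 77 of 236 tested higher in SWAT and 67 in EWAT (61.0% called, beside 36.7% over all genes). Of the WNT family, which directs mesenchymal fate, 9 of 19 tested ligands and modulators were higher in SWAT and 6 in EWAT. Wnt2, a canonical ligand, stood at 56.6 and 46.3 CPM in SWAT and 4.16 and 4.09 CPM in EWAT. Dkk2, a secreted WNT antagonist, stood at 104 and 107 CPM in SWAT and 8.5 and 9.53 CPM in EWAT. The R-spondins, which strengthen WNT signals through LGR receptors, were on the other side. Rspo1 stood at 3.89 and 4.01 CPM in SWAT and 56.6 and 59 CPM in EWAT and Rspo3 at 3.34 and 2.9 CPM in SWAT and 30.2 and 33.2 CPM in EWAT. The antagonists also split between the depots, as Sfrp2 was 4.74-fold higher in SWAT and Sfrp1 5.02-fold higher in EWAT. Wnt5a, the abundant non-canonical ligand of fibroblasts, stood at 119 and 111 CPM in SWAT and 135 and 117 CPM in EWAT and was not called.

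In the BMP and TGF-beta family different ligands were higher in the 2 depots. Bmp3, a BMP that opposes osteogenic signalling, stood at 22.1 and 19.6 CPM in SWAT and 0.467 and 0.18 CPM in EWAT, a count ratio of 64.9-fold (95% counting interval 38.4 to 119). The gene lies at chromosome 5, 98854415 to 98884053. Chrdl1, a secreted BMP antagonist, stood at 136 and 171 CPM in SWAT and 8.59 and 13.4 CPM in EWAT. Inhbb, the activin B subunit, stood at 4.11 and 2.8 CPM in SWAT and 66.5 and 56.7 CPM in EWAT (17.8-fold higher in EWAT, edgeR adjusted p = 8.35e-09). Ltbp4, which holds latent TGF-beta in the matrix, stood at 313 and 269.7 CPM in SWAT and 2085 and 1906 CPM in EWAT. Bmp6 was higher in EWAT at 16.2 and 17 CPM in SWAT and 64.4 and 56.9 CPM in EWAT, whereas the intervals of Ltbp1, Ltbp3 and Tgfb3 lay within 0.5 of 0. Of 32 tested members, 13 were higher in SWAT and 10 in EWAT. Among FGFs, Fgf1, an acidic FGF without a secretion signal, stood at 3.51 and 4.9 CPM in SWAT and 48.2 and 53.4 CPM in EWAT, and Fgf7 and Fgf10, the mesenchymal ligands of epithelial FGF receptors, were 1.91-fold and 1.72-fold higher in SWAT.

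Growth factors of the IGF and vascular systems also divided. Igfbp5, an IGF binding protein that also binds matrix, stood at 5309 and 5482 CPM in SWAT and 178 and 170.0 CPM in EWAT (31-fold higher in SWAT; chromosome 1, 72858065 to 72874865). Igf1 itself was higher in EWAT, at 421 and 425 CPM in SWAT and 1064 and 993 CPM in EWAT. Pappa and Pappa2, proteases that release IGF from binding proteins, were 3.27-fold and 2.83-fold higher in EWAT. Of 12 tested members of this system 4 were called each way. Vegfa, the main angiogenic factor, stood at 248 and 265 CPM in SWAT and 89.4 and 82.4 CPM in EWAT. Vegfc, the lymphangiogenic member of the family, was 3.35-fold higher in EWAT. Ccbe1, which is needed to process VEGF-C, stood at 5.54 and 5.17 CPM in SWAT and 86.4 and 75.7 CPM in EWAT, and Apln, the ligand of the apelin receptor of vessels, at 4.77 and 5.22 CPM in SWAT and 38.3 and 46.2 CPM in EWAT. Vegfa was thus higher in SWAT and Vegfc and Ccbe1 in EWAT, while Vegfd was not called (log2 fold change -0.21). Wisp2, a matricellular growth factor, stood at 63.6 and 70 CPM in SWAT and 9.67 and 9.44 CPM in EWAT. Over the vascular and other growth factors 17 of 42 were higher in SWAT and 9 in EWAT. On log2(FPKM + 1) values these counts were 11 and 12, and with library totals 12 and 13.

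Of the chemokines tested 42.1% were called, and of the interleukins and other cytokines 58.3%, beside 36.7% over all genes. Cxcl13, the B-cell attractant, stood at 183 and 208 CPM in SWAT and 6.91 and 10.4 CPM in EWAT (22.5-fold higher in SWAT). Cxcl9, an interferon-induced T-cell attractant, stood at 122 and 124 CPM in SWAT and 7.1 and 10.9 CPM in EWAT. Cxcl14, a chemokine of skin and stroma, stood at 529 and 569 CPM in SWAT and 80 and 77.6 CPM in EWAT. In EWAT the eosinophil attractant Ccl11 was higher, at 366 and 374 CPM in SWAT and 876 and 1033 CPM in EWAT, and Il6 stood at 119 and 81.6 CPM in SWAT and 239 and 335 CPM in EWAT. The monocyte attractant Ccl2 and the stem cell retention factor Cxcl12 were not called, with log2 fold changes of -0.59 and -0.02. Of 19 chemokines 5 were higher in SWAT and 3 in EWAT, and of 24 interleukins and other cytokines 5 and 9 (5 without SWAT replicate 2 for those higher in EWAT). Ccl6 and Ccl9, 2 of the 3 higher in EWAT, are also expressed by macrophages. Macrophage markers were higher in EWAT for 10 of 19 tested (6 without SWAT replicate 1) and in SWAT for 0. Of the macrophage markers tested 52.6% were called, and their summed level was 29.6 and 42.1 CPM in SWAT and 68.3 and 68.3 CPM in EWAT. The part of macrophages in these chemokine levels was not tested.

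Plasma-type proteins and complement factors differed in both directions. Hp, which encodes the haemoglobin-binding protein haptoglobin, stood at 1.54 and 1.27 CPM in SWAT and 453 and 451 CPM in EWAT (chromosome 8, 109575128 to 109579172; log2 fold change -8.33 ± 0.17, edgeR adjusted p = 1.37e-10). Trf, the iron carrier transferrin, stood at 95.1 and 101.05 CPM in SWAT and 2227 and 2407 CPM in EWAT, and Cp, the copper oxidase ceruloplasmin, at 176 and 201 CPM in SWAT and 1325 and 1264 CPM in EWAT. These 3 genes of haem, iron and copper handling, named for the size of their differences, were all higher in EWAT. Of 28 adipokines and acute-phase proteins tested, 6 were higher in SWAT and 10 in EWAT (57.1% called, beside 36.7% over all genes). The summed level of that list was 23518 and 23015 CPM in SWAT and 16994 and 17915 CPM in EWAT. C4b, complement component 4, stood at 2091 and 2457 CPM in SWAT and 226 and 248.7 CPM in EWAT in the other direction, although C4a, a near-identical copy, may take part of its reads. The central component C3 stood at 13943 and 13507 CPM in SWAT and 13077 and 11626 CPM in EWAT, with an interval of -0.12 to 0.42 around its log2 difference. Hc, complement component 5, was higher in SWAT with a count ratio of 21.1-fold (95% counting interval 10.9 to 47). Of 27 complement genes 7 were higher in SWAT and 6 in EWAT (48.1% called, beside 36.7% over all genes).

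Neuropeptide and guidance ligands had their largest differences towards EWAT. Penk, the enkephalin precursor, stood at 102 and 92.5 CPM in SWAT and 1182 and 1296 CPM in EWAT (12.7-fold higher in EWAT). Slit2, the repellent ligand of ROBO receptors, stood at 10.7 and 14.1 CPM in SWAT and 104 and 84.2 CPM in EWAT, and Agt, the angiotensin precursor, at 50.8 and 62.6 CPM in SWAT and 343 and 379 CPM in EWAT. Ntf3, the neurotrophin that signals through NTRK3, was higher in SWAT, at 25.3 and 28.6 CPM in SWAT and 6.3 and 6.47 CPM in EWAT. Of 26 tested, 7 were higher in SWAT and 8 in EWAT.

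Collagens were called in both directions, with a median log2 fold change of 0.34. Col1a1 and Col3a1, the main fibrillar collagens, stood at 29863 and 26647 CPM in SWAT and 3759.8 and 4903 CPM in EWAT, and at 54389.6 and 53336 CPM in SWAT and 14949 and 15634 CPM in EWAT. Over the 43 collagens found in the tables, the summed level was 156270.0 and 151940.0 CPM in SWAT and 52151 and 51852 CPM in EWAT. Col6a3, a collagen VI chain, stood at 7781 and 8381 CPM in SWAT and 1730.2 and 1455 CPM in EWAT. Not every chain was higher in SWAT. Col6a5, a collagen VI chain that can take the place of the Col6a3 product, ran the other way at 16.5 and 17.1 CPM in SWAT and 2322 and 1909 CPM in EWAT (chromosome 9, 105856070 to 105962463), and Col6a6 was 3.06-fold higher in EWAT. Col4a5 and Col4a6, the paired chains of an alternative basement membrane network, were 1.97-fold and 12.4-fold higher in EWAT, whereas Col4a1 and Col4a2 were 1.64-fold and 1.65-fold higher in SWAT. Of 35 tested, 17 were higher in SWAT and 11 in EWAT, and with library totals 15 and 12. With the trend with transcript length described below removed, the counts were also 15 and 12, and the median was 0.13.

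Matrix genes were called in 66.5% of 173 tested, beside 36.7% over all genes, with 61 higher in SWAT and 54 in EWAT. Frem1, an extracellular protein of the skin basement membrane, stood at 18.5 and 20.1 CPM in SWAT and 1.12 and 0.584 CPM in EWAT. Hmcn1, a hemicentin of tissue boundaries, stood at 0.658 and 1.21 CPM in SWAT and 36.3 and 26.2 CPM in EWAT, and Matn2, a matrilin that links matrix filaments, at 4.003 and 3.06 CPM in SWAT and 281 and 338 CPM in EWAT. Epyc, a small leucine-rich proteoglycan of cartilage, had 1 and 7 counts in SWAT and 228 and 326 in EWAT. Thbs1, a thrombospondin that activates latent TGF-beta, stood at 172 and 204 CPM in SWAT and 1853 and 1337 CPM in EWAT, and Mgp, an inhibitor of calcification, at 6.64 and 7.49 CPM in SWAT and 173 and 242 CPM in EWAT. Of the small leucine-rich proteoglycans, Dcn (decorin) was 1.8-fold and Bgn (biglycan) 1.77-fold higher in EWAT. The lubricin gene Prg4 stood at 81.8 and 169 CPM in SWAT and 6.91 and 5.08 CPM in EWAT. Its 2 SWAT values were far apart and its call was lost without EWAT replicate 1 and without EWAT replicate 2. Crispld1, a secreted cysteine-rich protein, stood at 28.9 and 32.8 CPM in SWAT and 1.63 and 1.44 CPM in EWAT, and Tnxb, the tenascin of elastic connective tissue, at 7456 and 7028 CPM in SWAT and 4208 and 3411 CPM in EWAT. Of 66 proteoglycan, elastic fibre and matricellular genes 22 were higher in SWAT and 23 in EWAT.

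Matrix proteases included the largest called SWAT difference among the matrix lists. Mmp3, stromelysin, stood at 653 and 717 CPM in SWAT and 5.00 and 4.81 CPM in EWAT (139.6-fold higher in SWAT; chromosome 9, 7445822 to 7455975). Mmp2, gelatinase A, and the inhibitor Timp3 were higher in SWAT as well, by 2.66-fold and 1.96-fold. Mmp12, the elastase of macrophages, had 0 and 1 counts in SWAT and 44 and 92 in EWAT, and it is to be read beside the macrophage markers above. Adamts4, an aggrecan-cleaving protease, was 3.51-fold higher in EWAT. Of 50 tested, 13 were higher in SWAT and 15 in EWAT, and the intervals of Timp2, Adamts2 and Plat lay within 0.5 of 0.

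**Figure D3:**
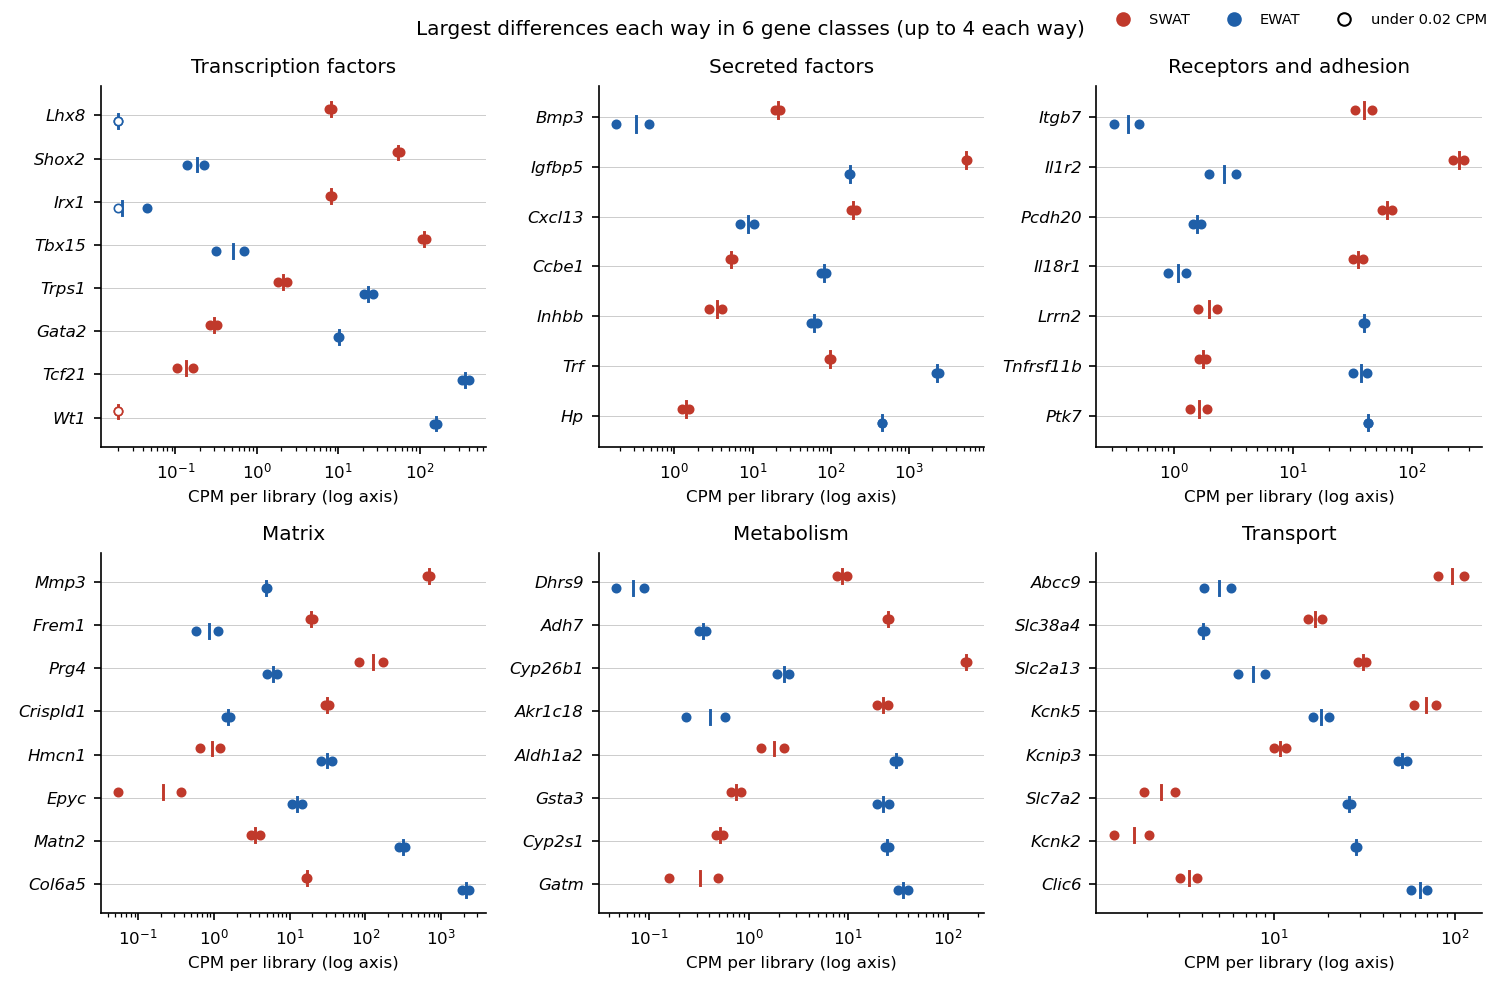
CPM in each library (points, log axis) and depot means (vertical bars) for the largest called differences each way in 6 gene classes, up to 4 each way, with SWAT in red and EWAT in blue and open points under 0.02 CPM. For each of these genes both libraries of 1 depot lie beyond both of the other, which the choice of genes required.

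Receptors of the interleukin-1 family formed a run of neighbouring tested genes called higher in SWAT. Il1r2, the decoy receptor that binds interleukin-1 without signalling, stood at 275 and 219 CPM in SWAT and 1.96 and 3.32 CPM in EWAT (92.8-fold higher in SWAT). Il18r1, the interleukin-18 receptor, stood at 38.7 and 32 CPM in SWAT and 1.26 and 0.899 CPM in EWAT. Il1r1, the signalling receptor for interleukin-1, stood at 402 and 436 CPM in SWAT and 211 and 210.3 CPM in EWAT, and Il1rl2, the interleukin-36 receptor, at 507 and 478 CPM in SWAT and 112 and 90.7 CPM in EWAT. Per length, Il1r2 was the highest of these in SWAT, at 183 and 149 FPKM against 121 and 118 for Il1rl2 and 76 and 84.4 for Il1r1. In EWAT the order differed, with 47.1 and 48.6 FPKM for Il1r1, 31.1 and 25.4 for Il1rl2 and 1.61 and 2.78 for Il1r2. Il1rl1, the interleukin-33 receptor, was also higher in SWAT at 4.44 and 7.7 CPM in SWAT and 0.981 and 0.854 CPM in EWAT. With Map4k4, a kinase gene next to them, these are 6 neighbouring tested genes on chromosome 1 between 39900902 and 40500854, all called higher in SWAT, and their median was 2.50 on the log2 scale. The call of Map4k4 (1.27-fold higher) was lost without SWAT replicate 1, without SWAT replicate 2, without EWAT replicate 2 and with library totals. The run was noticed after its values were seen. Its ends were set by the calls, because a run stops at the first tested neighbour not called the same way. Il1rap, the co-receptor gene for Il1r1, lies on another chromosome and was 2.54-fold higher in SWAT. Il18, the ligand gene for Il18r1, was 2.22-fold higher in SWAT.

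**Figure D4:**
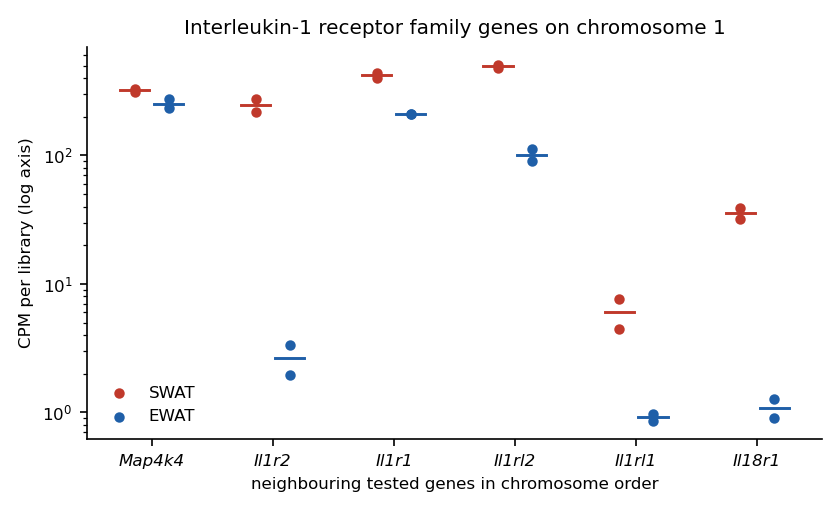
CPM per library (points, log axis) and depot means (bars) for 6 neighbouring genes on chromosome 1 in chromosome order, with SWAT in red and EWAT in blue. Il1r2 and Il18r1 differ most, Map4k4 least, and every SWAT value lies above both EWAT values of the same gene.

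Other cytokine receptors moved both ways. Il4ra, the receptor chain shared by interleukin-4 and interleukin-13, stood at 277 and 300.1 CPM in SWAT and 36.9 and 34.6 CPM in EWAT (8.06-fold higher in SWAT). Tnfrsf11b, osteoprotegerin, the decoy receptor of the bone factor RANKL, stood at 1.86 and 1.63 CPM in SWAT and 32.1 and 41.7 CPM in EWAT. F3, tissue factor, stood at 108 and 68.8 CPM in SWAT and 239 and 239 CPM in EWAT. Tnfrsf1a, Ifngr1 and Ifnar1, receptors for TNF, interferon-gamma and type I interferon, were not called, with log2 fold changes of -0.22, -0.02 and 0.09. Of 49 tested, 14 were higher in SWAT and 9 in EWAT (46.9% called, beside 36.7% over all genes).

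Receptor tyrosine kinases were called in both directions. All receptor lists together had 102 of 286 tested genes higher in SWAT and 77 in EWAT (62.6% called, beside 36.7% over all genes). Ptk7, a co-receptor of planar polarity signalling, stood at 1.37 and 1.9 CPM in SWAT and 42.8 and 42.9 CPM in EWAT (log2 fold change -4.70 ± 0.21, edgeR adjusted p = 2.74e-08), and Ntrk3 at 7.51 and 10.4 CPM in SWAT and 41.7 and 37.6 CPM in EWAT. The NTRK3 ligand Ntf3 was higher in SWAT, as given above, while Ntrk2 was 1.996-fold higher in SWAT. Egfr, the EGF receptor, stood at 1132 and 1142 CPM in SWAT and 703 and 537 CPM in EWAT. Pdgfra, Axl and Ddr2 had intervals within 0.5 of 0. Of 42 receptor tyrosine kinases 16 were higher in SWAT and 9 in EWAT, but 9 and 9 without SWAT replicate 1, 9 and 11 with library totals and 7 and 11 on log2(FPKM + 1) values. With the trend with transcript length described below removed, 12 receptor tyrosine kinases were higher in SWAT and 11 in EWAT. Lgr5, an R-spondin receptor, had 51 and 52 counts in SWAT and 6 and 2 in EWAT, and Notch4 stood at 3.29 and 2.58 CPM in SWAT and 33.9 and 27.7 CPM in EWAT. Of 33 WNT, hedgehog and Notch receptors 15 were higher in SWAT and 7 in EWAT, and the 15 became 9 without SWAT replicate 2 and 9 with library totals. With library totals 8 of these receptors were higher in EWAT. With the length trend removed 13 were higher in SWAT and 6 in EWAT, and their median log2 fold change went from 0.39 to 0.17. In the TGF-beta receptor list 2 of 13 were higher in SWAT and 4 in EWAT (46.2% called, beside 36.7% over all genes). Among them were Acvr2a, an activin receptor (2.72-fold higher in SWAT), and Bambi, a decoy receptor (3.76-fold higher in EWAT). The 4 became 1 without SWAT replicate 1 and 2 without SWAT replicate 2 or EWAT replicate 1, and the 2 became 1 without SWAT replicate 1, SWAT replicate 2 or EWAT replicate 2.

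G protein-coupled receptors were called in 54 of 74 cases, 24 higher in SWAT and 30 in EWAT. In SWAT these included Npy1r, a neuropeptide Y receptor, at 17.6 and 22.6 CPM in SWAT and 1.82 and 2.11 CPM in EWAT. Hrh2, the histamine H2 receptor, stood at 23.3 and 20 CPM in SWAT and 3.88 and 3.91 CPM in EWAT, and Adra1d, an alpha-1 adrenergic receptor, was higher in SWAT with a count ratio of 18.7-fold (95% counting interval 11.9 to 31.1). Calcrl and its partner Ramp2, which together form a receptor for adrenomedullin, were 2.66-fold and 1.79-fold higher in SWAT. Chrm2, the muscarinic M2 receptor, had 27 and 35 counts in SWAT and 0 in EWAT. Those higher in EWAT included prostaglandin, nucleotide and peptide receptors. Ptger4, the EP4 prostaglandin receptor, stood at 5.1 and 5.43 CPM in SWAT and 65.2 and 69.1 CPM in EWAT, and P2ry1, an ADP receptor, at 7.68 and 7.07 CPM in SWAT and 65.7 and 58.8 CPM in EWAT. Avpr1a, the vasopressin V1a receptor, stood at 17.9 and 15.1 CPM in SWAT and 109 and 114 CPM in EWAT, and S1pr3, a sphingosine 1-phosphate receptor, at 110.1 and 125 CPM in SWAT and 349.9 and 315 CPM in EWAT. Rxfp2, the receptor for the testis hormone INSL3, had 1 and 0 counts in SWAT and 92 and 62 in EWAT. The intervals of Lpar1, Npr2 and S1pr2 lay within 0.5 of 0.

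Adhesion receptors were more often higher in SWAT, 25 of 55 tested against 13 in EWAT. Itgb7, an integrin subunit best known from gut-homing lymphocytes, stood at 46.1 and 33 CPM in SWAT and 0.514 and 0.315 CPM in EWAT. Of 16 lymphocyte markers 4 were tested and 0 called, with a median log2 fold change of 0.79 and summed levels of 4.61 and 5.27 CPM in SWAT and 3.88 and 3.64 CPM in EWAT. Their part in the level of Itgb7 was not tested. Pcdh20, a protocadherin, stood at 67.8 and 55.6 CPM in SWAT and 1.68 and 1.44 CPM in EWAT, and Itga7, a laminin receptor subunit, at 21.3 and 26 CPM in SWAT and 1.87 and 1.66 CPM in EWAT. Lrrn2 and Lrrn1, leucine-rich repeat membrane proteins, stood at 1.59 and 2.32 CPM in SWAT and 38.8 and 40.4 CPM in EWAT, and at 4.44 and 4.48 CPM in SWAT and 76.3 and 62.4 CPM in EWAT. The count higher in SWAT was 15 on log2(FPKM + 1) values, and the count higher in EWAT was 8 without SWAT replicate 1. On log2(FPKM + 1) values the count of adhesion receptors higher in EWAT was 14. Among guidance receptors 6 of 20 were higher in SWAT and 5 in EWAT. Gfra1, a GDNF co-receptor, had 49 and 30 counts in SWAT and 3 and 1 in EWAT, and its relative Gfra2 was 3.77-fold higher in EWAT.

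Metabolic genes were called in 51.0% of 420 tested, beside 36.7% over all genes, with 71 higher in SWAT and 143 in EWAT. The 143 include 36 oxidative phosphorylation subunits. With the trend with transcript length described below removed, 6 subunits were higher in EWAT and 3 in SWAT. Retinoid enzymes were called in both directions. Cyp26b1, which inactivates retinoic acid, stood at 154 and 149 CPM in SWAT and 1.91 and 2.56 CPM in EWAT (67.4-fold higher in SWAT; chromosome 6, 84571414 to 84593908). Dhrs9 and Adh7, dehydrogenases that oxidise retinol, were also higher in SWAT, with 175 and 145 counts against 1 and 2 for Dhrs9 and 25.4 and 24.6 CPM in SWAT and 0.374 and 0.315 CPM in EWAT for Adh7. Enzymes that make retinoic acid from retinaldehyde were higher in EWAT. Aldh1a2 stood at 1.32 and 2.27 CPM in SWAT and 31.6 and 28.7 CPM in EWAT, Aldh1a3 at 121 and 121 CPM in SWAT and 311 and 299 CPM in EWAT and Aldh1a1 at 74.7 and 71.5 CPM in SWAT and 150.01 and 159 CPM in EWAT. Rdh10, which supplies retinaldehyde, was 2.88-fold higher in EWAT. Per length, Aldh1a3 and Aldh1a1 were the most abundant of the 3 in EWAT, at 95.8 and 94.5 and 78 and 84.7 FPKM against 14.7 and 13.7 for Aldh1a2. Of 22 tested members of the pathway 4 were higher in SWAT and 9 in EWAT. The receptors Rarg and Rxrg were higher in SWAT, Rarg by 2.08-fold.

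Steroid enzymes were called more often in EWAT. Akr1c18, which inactivates progesterone, stood at 25.1 and 19.4 CPM in SWAT and 0.234 and 0.584 CPM in EWAT. Sult1e1, which inactivates oestrogens by sulfation, stood at 117 and 96.6 CPM in SWAT and 919.5 and 990.1 CPM in EWAT (8.93-fold higher in EWAT). Hsd11b1, which regenerates active glucocorticoid, was 2.35-fold higher in EWAT, whereas Hsd11b2, which inactivates it, was 5.32-fold higher in SWAT. Star, the carrier that brings cholesterol into steroid-making mitochondria, stood at 3.56 and 4.59 CPM in SWAT and 18.4 and 19.9 CPM in EWAT. Of 33 tested, 4 were higher in SWAT and 12 in EWAT, or 20 in EWAT with library totals.

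Amino acid enzymes held single large differences. Gatm, the first enzyme of creatine synthesis, stood at 0.494 and 0.158 CPM in SWAT and 31.9 and 39.3 CPM in EWAT, a count ratio of 111-fold (95% counting interval 63.1 to 214). Psat1, an enzyme of serine synthesis, stood at 14.4 and 15.6 CPM in SWAT and 127 and 144 CPM in EWAT, while Aldh1l2, a mitochondrial folate enzyme, stood at 24.2 and 21 CPM in SWAT and 2.94 and 2.97 CPM in EWAT. Asns, asparagine synthetase, was 2.42-fold higher in SWAT. Of 49 tested, 10 were higher in SWAT and 12 in EWAT (44.9% called, beside 36.7% over all genes). With library totals 20 were higher in EWAT.

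Detoxification enzymes were more often higher in EWAT, with 31 of 58 tested against 8 in SWAT and a median log2 fold change of -0.37. Cyp2s1, a cytochrome P450, stood at 0.548 and 0.475 CPM in SWAT and 25.6 and 23.4 CPM in EWAT. Gsta3, a glutathione transferase of steroid metabolism, stood at 0.658 and 0.844 CPM in SWAT and 19.5 and 25.5 CPM in EWAT, and Gstm1, another transferase, at 556 and 478 CPM in SWAT and 1397 and 1369 CPM in EWAT. The peroxidase genes Prdx1, Prdx5 and Gpx1 were 1.6-fold, 2.42-fold and 1.58-fold higher in EWAT. With the length trend described below removed, 27 were higher in EWAT and 13 in SWAT, and the median was -0.19. The count higher in EWAT was 22 to 33 without single SWAT or EWAT libraries and 39 with library totals, and the 8 higher in SWAT became 4 without SWAT replicate 2. The antioxidant response element, written TGACNNNGC and searched on both strands, was found in the RefSeq promoter window (250 bases before to 50 after the gene start) of 7 of 24 list members called higher in EWAT that had a window, which is 29.2%. It was found in 16.8% of all tested genes with a window and in 2 of 23 other members with a window. A gene with several windows was counted once, with a match in any of them. The window of Gsta3 is shown because that gene has the largest difference among the 7. The 250 bases before its start are printed 5′ to 3′ with the match in capitals (chr1:21240335-21240584, plus strand, GRCm38.p6).
Gsta3: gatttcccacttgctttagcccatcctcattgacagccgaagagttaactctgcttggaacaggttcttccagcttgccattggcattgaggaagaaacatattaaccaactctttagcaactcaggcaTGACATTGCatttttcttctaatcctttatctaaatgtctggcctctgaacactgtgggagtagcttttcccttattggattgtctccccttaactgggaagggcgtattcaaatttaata

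Lipid genes were called in both directions. Fatty acid synthesis genes were higher in SWAT for 9 of 19 and in EWAT for 3. Fasn, fatty acid synthase, stood at 254 and 240.4 CPM in SWAT and 148 and 124 CPM in EWAT. Cholesterol synthesis and transport genes were higher in SWAT for 18 of 35 and in EWAT for 3, and the median log2 fold change was 0.31. Hmgcs1, which starts the mevalonate pathway, was 1.57-fold higher in SWAT. The 18 became 9 without SWAT replicate 1, and 9 with library totals, so that the count depends on the scaling and on 1 library. Cyp27a1, which turns cholesterol into an oxysterol, was 3.13-fold higher in EWAT. The sterol regulatory element TCACCCCAC, searched on both strands, was in the promoter window of 1 of 10 members called higher in SWAT that had a window, that of Hmgcs1. It was in 0 of 13 other members with a window and in 0.666% of all tested genes with a window. The 250 bases before the start of Hmgcs1 are shown with the match in capitals (chr13:119690101-119690350, plus strand).
Hmgcs1: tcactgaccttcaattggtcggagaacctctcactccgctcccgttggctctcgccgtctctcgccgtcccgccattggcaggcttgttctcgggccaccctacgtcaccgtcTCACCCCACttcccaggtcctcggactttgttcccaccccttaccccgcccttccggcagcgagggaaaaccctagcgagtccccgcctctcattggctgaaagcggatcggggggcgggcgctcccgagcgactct

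Lipid droplet genes did not move as a group. Plin4, a droplet coat protein of adipocytes, stood at 48.6 and 89.1 CPM in SWAT and 1.26 and 1.39 CPM in EWAT (51.6-fold higher in SWAT). G0s2, an inhibitor of the lipase ATGL, stood at 14.6 and 14.1 CPM in SWAT and 58.8 and 75.3 CPM in EWAT. Of 40 tested members 12 were higher in SWAT and 9 in EWAT, and the 12 became 7 without SWAT replicate 2 and 5 with library totals. With library totals 15 lipid droplet genes were higher in EWAT, and on log2(FPKM + 1) values 5 were higher in SWAT and 17 in EWAT. Of 14 tested markers of mature adipocytes 2 were higher in SWAT and 3 in EWAT, which is 35.7% called beside 36.7% over all genes. Their summed levels were 421 and 423 CPM in SWAT and 341 and 424 CPM in EWAT. Adipoq had 4 and 6 counts in SWAT and 3 and 16 in EWAT.

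Energy metabolism genes were shifted towards EWAT by a small amount that moved with transcript length. Of 75 tested subunits of oxidative phosphorylation 36 were higher in EWAT and 1, Cox8b, in SWAT, and the median was -0.40 on the log2 scale. Uqcrb, a subunit of complex III, stood at 25.9 and 26.5 CPM in SWAT and 37.5 and 54.9 CPM in EWAT. The summed level of the list was 2592 and 2489 CPM in SWAT and 2794 and 3553 CPM in EWAT, so that the EWAT libraries differed more from each other than EWAT replicate 1 did from SWAT. Over 10 equal bins of the tested genes by transcript length, the median log2 fold change ran from -0.33 in the shortest to 0.26 in the longest, and EWAT replicate 2 minus EWAT replicate 1 ran from 0.30 to -0.31. With this trend removed 6 subunits were higher in EWAT and 3 in SWAT (median -0.06). The count was 8 without EWAT replicate 2, 10 without SWAT replicate 1, 7 without SWAT replicate 2, 61 without EWAT replicate 1 and 66 with library totals. The part of transcript length in the depot difference was not tested beyond these values.

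**Figure D5:**
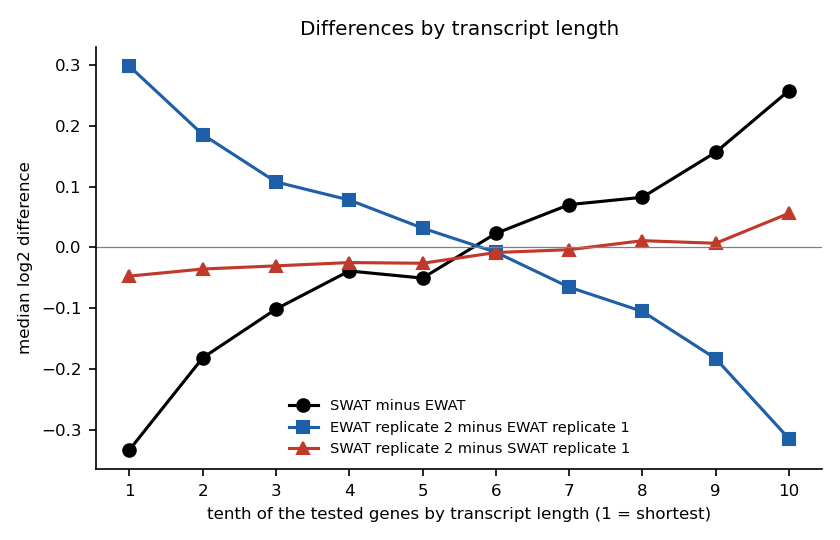
Median log2 difference (vertical) in each of 10 equal bins of the tested genes by transcript length (horizontal, 1 = shortest), for SWAT minus EWAT (black), EWAT replicate 2 minus EWAT replicate 1 (blue) and SWAT replicate 2 minus SWAT replicate 1 (red). The black line runs from -0.33 to 0.26 and the blue line from 0.30 to -0.31, while the red line stays near 0.

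Fatty acid oxidation genes were higher in EWAT for 13 of 33 and in SWAT for 2, which is 45.5% called against 36.7% of all genes. Cpt1a, the gate of mitochondrial import, was 1.8-fold higher in EWAT. Glycolysis and lactate genes were higher in EWAT for 10 of 34 and in SWAT for 2, which is 35.3% called against 36.7% of all genes, or 19 and 0 with library totals. Ldhb, the lactate dehydrogenase subunit that favours lactate use, stood at 7.95 and 10.6 CPM in SWAT and 52.9 and 61.6 CPM in EWAT. The glucose transporter gene Slc2a3 was 2.64-fold higher in EWAT. Of 26 tricarboxylic acid cycle genes 6 were higher in EWAT and 1 in SWAT, or 26.9% called against 36.7% of all genes. The 6 became 2 without SWAT replicate 1, 1 without SWAT replicate 2, 14 without EWAT replicate 1, 3 without EWAT replicate 2 and 19 with library totals.

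Transporters and channels were called in 53.5% of 155 tested, beside 36.7% over all genes, with 37 higher in SWAT and 46 in EWAT. Abcc9, the sulfonylurea receptor subunit of ATP-sensitive potassium channels, stood at 81 and 113 CPM in SWAT and 5.84 and 4.13 CPM in EWAT, and Kcnj8, the pore that pairs with it, was higher in SWAT with a count ratio of 7.75-fold (95% counting interval 4.48 to 14.4). Both are also markers of pericytes, in whose list 4 of 12 were higher in SWAT and 7 in EWAT (91.7% called). The pericyte marker Rgs5 stood at 2.85 and 3.43 CPM in SWAT and 7.1 and 7.28 CPM in EWAT. The summed level of that list was 852 and 959.9 CPM in SWAT and 1293 and 1245 CPM in EWAT, and its part in these channel genes was not tested. Kcnk5, an acid-sensitive potassium channel, stood at 78.5 and 59.6 CPM in SWAT and 20.1 and 16.4 CPM in EWAT. Clic6, an intracellular chloride channel protein, stood at 3.78 and 3.06 CPM in SWAT and 70.4 and 57.5 CPM in EWAT, and Kcnk2, a mechanosensitive potassium channel, at 1.32 and 2.06 CPM in SWAT and 28.1 and 28.8 CPM in EWAT. Slc38a5, a glutamine carrier, had 0 counts in SWAT and 103 and 157 in EWAT (at least 36.8-fold higher). Slc7a2, a carrier of arginine and other cationic amino acids, stood at 1.92 and 2.85 CPM in SWAT and 26.6 and 25.4 CPM in EWAT, and in SWAT the amino acid carrier Slc38a4 was 4.14-fold and the inositol carrier Slc2a13 4.04-fold higher. Slc40a1, the iron exporter ferroportin, stood at 2.58 and 2.64 CPM in SWAT and 7.01 and 8.45 CPM in EWAT. Of 80 solute carriers 19 were higher in SWAT and 20 in EWAT (48.8% called), and of 75 ion channels and ABC transporters 18 and 26 (58.7% called).

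Interferon-response genes were called almost entirely in 1 direction, with 38 of 57 tested members higher in SWAT and 1, Ifit2, in EWAT, and the median was 0.70 on the log2 scale. Cxcl10, an interferon-induced chemokine, stood at 204 and 157 CPM in SWAT and 35 and 52.1 CPM in EWAT, and its call was lost without any 1 of the 4 libraries. Tgtp2, a GTPase that attacks parasite vacuoles, stood at 47.7 and 53.6 CPM in SWAT and 2.85 and 4.45 CPM in EWAT, although it may share reads with Tgtp1. Igtp, a related GTPase, stood at 56.8 and 60.3 CPM in SWAT and 25.5 and 25.2 CPM in EWAT. H2-K1, a class I antigen presentation gene, was 2.15-fold higher in SWAT, and Stat2, a transducer of type I interferon signals, 1.59-fold. The summed level of the list was 6298 and 6854 CPM in SWAT and 3572 and 3936 CPM in EWAT. The count higher in SWAT was 27 to 31 without any single SWAT or EWAT library and 28 with library totals. Ifit2 stood at 32 and 32.3 CPM in SWAT and 40.9 and 40.2 CPM in EWAT, and its call was lost without SWAT replicate 1 and without SWAT replicate 2.

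The interferon-stimulated response element is a promoter site through which type I interferon acts. Its core, 2 runs of GAAA with any 2 bases between them, searched on both strands, was in the promoter window of 16 of 28 interferon-response genes called higher in SWAT that had a window (57.1%). It was in 8 of 15 other tested members (53.3%) and in 407 of 10659 tested genes at large (3.82%). The shares in called and other members of the list were thus close. A match of letters is a description and does not show binding. The 250 bases before the start of 3 members whose call held in every alternative tried are printed 5′ to 3′ with matches on either strand in capitals, for a GTPase (Igtp, chr11:58199306-58199555, plus strand), a signal transducer (Stat2, chr10:128270248-128270497, plus strand) and a surface protein that tethers viruses (Bst2, chr8:71537473-71537722, minus strand), from RefSeq on GRCm38.p6.
Igtp: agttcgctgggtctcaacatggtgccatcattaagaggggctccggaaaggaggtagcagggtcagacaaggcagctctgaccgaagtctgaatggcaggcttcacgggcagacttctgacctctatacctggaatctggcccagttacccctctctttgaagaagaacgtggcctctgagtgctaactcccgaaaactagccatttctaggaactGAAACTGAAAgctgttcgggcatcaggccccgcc
Stat2: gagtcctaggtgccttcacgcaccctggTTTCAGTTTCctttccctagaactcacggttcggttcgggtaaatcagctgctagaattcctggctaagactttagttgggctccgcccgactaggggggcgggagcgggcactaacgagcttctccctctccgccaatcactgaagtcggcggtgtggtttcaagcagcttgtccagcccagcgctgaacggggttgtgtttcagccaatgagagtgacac
Bst2: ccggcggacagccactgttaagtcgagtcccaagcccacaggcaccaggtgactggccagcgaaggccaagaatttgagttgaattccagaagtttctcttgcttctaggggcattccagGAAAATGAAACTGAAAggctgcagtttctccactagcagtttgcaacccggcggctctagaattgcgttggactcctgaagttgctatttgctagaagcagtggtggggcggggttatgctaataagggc

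Contractile genes of smooth muscle were higher in EWAT for 16 of 21 and in SWAT for 0, with a median of -0.91. Mylk, the kinase that starts smooth muscle contraction, stood at 7.24 and 7.96 CPM in SWAT and 202 and 234 CPM in EWAT (28.7-fold higher in EWAT). Lmod1, which nucleates actin filaments, stood at 0.494 and 0.791 CPM in SWAT and 24.2 and 23.5 CPM in EWAT, and the intermediate filament gene Des at 6.09 and 4.17 CPM in SWAT and 90.9 and 95.8 CPM in EWAT. Myh11, smooth muscle myosin, stood at 3.67 and 5.22 CPM in SWAT and 27.1 and 23.8 CPM in EWAT, and Acta2, smooth muscle actin, at 1.92 and 3.48 CPM in SWAT and 4.9 and 9.3 CPM in EWAT. The call of Acta2 was lost without SWAT replicate 1 and without EWAT replicate 2. Flna and Srf had intervals within 0.5 of 0. Without single SWAT or EWAT libraries 12 to 14 were higher in EWAT. The CArG box, the site of serum response factor, searched on both strands, was in the promoter window of 3 of 14 members called higher in EWAT that had a window (21.4%). It was in 2 of 4 other members with a window and in 1.52% of all tested genes with a window. Pericyte markers Des, Myh11 and Acta2 are shared with this list, and the part of mural cells in it was not tested.

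Transcripts of the immediate-early response, which tissue digestion can induce, were called in both directions, 15 of 43 higher in SWAT and 11 in EWAT (9 in SWAT without SWAT replicate 1). Fosb stood at 9947 and 8246 CPM in SWAT and 4513 and 3611 CPM in EWAT and Egr1 at 10195 and 9105 CPM in SWAT and 7049 and 5926 CPM in EWAT, both higher in SWAT. The call of Egr1 was lost without SWAT replicate 1. Nr4a1, an orphan receptor of the same response, stood at 591 and 522 CPM in SWAT and 1692 and 1523 CPM in EWAT, higher in EWAT together with Nr4a2 and Nr4a3. Zfp36 and Junb were not called. Few proliferation genes were called, 2 of 43 in SWAT and 4 in EWAT (13.95% beside 36.7%). Ccnd1, cyclin D1, was 3.72-fold higher in SWAT, and the cycling marker Mki67 stood at 10.9 and 19.5 CPM in SWAT and 11.9 and 20 CPM in EWAT. Without EWAT replicate 1, 24 were higher in EWAT, and without SWAT replicate 1 there was 1.

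Adipose progenitors are commonly divided into Dpp4-type interstitial cells, Icam1-type committed preadipocytes and F3-type cells that restrain adipogenesis. Markers of the Dpp4 type were higher in SWAT for 16 of 24 and in EWAT for 2, and the median log2 fold change was 0.56. Dpp4 itself stood at 517 and 464 CPM in SWAT and 238 and 227 CPM in EWAT, and Pi16, its companion marker, at 2056 and 1804 CPM in SWAT and 587 and 596 CPM in EWAT. Igfbp5 and Wnt2, given above, had the largest differences of the list. Cd55 was higher in EWAT, 323 and 266 CPM in SWAT and 528 and 565 CPM in EWAT. The count was 8 on log2(FPKM + 1) values and 12 to 16 without single libraries. Markers of the Icam1 type were called in both directions, 9 of 22 higher in SWAT and 5 in EWAT. Mme, a membrane endopeptidase, stood at 169 and 204 CPM in SWAT and 6.16 and 4.99 CPM in EWAT, and Icam1 at 268 and 309 CPM in SWAT and 122 and 141 CPM in EWAT. Apoe was 2.24-fold higher in EWAT. F3-type markers were higher in EWAT for 9 of 18 and in SWAT for 5. The log2 fold changes of the tested members ran from -4.88 to 2.97, with a median of -0.19. F3, Mgp and Aldh1a2, whose values stand above, are among the 9 higher in EWAT. The 5 became 2 without either SWAT library and in DESeq2, and 3 without either EWAT library. In bulk data these counts do not show the proportions of the 3 cell types.

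Markers of nerve-associated cells were called more often in SWAT. Of 11 tested Schwann cell markers 6 were higher in SWAT and 2 in EWAT (72.7% called, beside 36.7% over all genes). Their summed level was 429 and 396 CPM in SWAT and 534 and 596 CPM in EWAT, so that the sum and the count point in opposite directions. Mbp, myelin basic protein, stood at 21.7 and 22.8 CPM in SWAT and 4.34 and 4.49 CPM in EWAT, and S100b at 8.06 and 10.5 CPM in SWAT and 3.27 and 3.73 CPM in EWAT. The Schwann cell regulator Sox10 had 2 and 2 counts in SWAT and 1 and 0 in EWAT. Erbb3, a receptor tyrosine kinase counted above, is on this list as well, and the part of Schwann cells in its difference was not tested.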

How the data were processed

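RNA sequencing of sorted adipose stem cells was deposited as 1 table of estimated counts and 1 of FPKM values per gene and library. The authors made both. The submitters' processing notes name GRCm38.p6, Cell Ranger and Seurat without roles, and the sources used here do not give the counter, the annotation or the use of strand. The deposited estimated counts (31.7 to 33.1% of them not whole) were rounded, and the deposited FPKM values served for levels per length and for alternatives on log2(FPKM + 1) and log2(FPKM + 0.1) in limma 3.58.1. In both tables, 2 columns each matched no sample label and were not used, and the mesenteric depot was not analysed here.

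Genes passing edgeR's filter (minimum count 10, total 15) were fitted in edgeR 4.0.16 (R 4.3.3) over 6 libraries with TMM factors and a robust quasi-likelihood test, leaving 3 residual degrees of freedom. The spread thus assumes that the NWAT libraries vary like the others. Adjusted p-values are Benjamini-Hochberg over all 13694 genes tested. The main edgeR fit, but none of the alternatives, was tried on simulated counts. These were drawn with the spread estimated from the same libraries, so they cannot show whether that spread is right. DESeq2 1.42.0, other scalings, filters, a replicate block and leaving out libraries were alternatives. A gene at 0 in a depot is given as a bound from a floor of 3 counts per library. Counting intervals (95%) and floors cover counting error only. Gene positions and promoter windows come from RefSeq on GRCm38.p6, and 17503 of 17967 symbols matched.

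The comparison, the lists and the members were chosen with earlier results of these data known. Named genes are, among called genes averaging 2 or more in log2 CPM and with no overlap between depots, the 4 largest differences each way in each class and the 10 largest each way over all genes. Added to these are the 10 largest in CPM each way, the highest genes at 0 in 1 depot, the largest changes in each list, and list members whose 95% interval lies within 0.5 of 0. Other genes named in the text, such as the interleukin-1 receptor run, Vegfa and Esr1, were chosen after their values were seen. Near-identical genes and overlapping genes may share reads. Some genes that the naming rule selects are not reported here.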

Additional observations from a re-analysis of the deposited data

How the results depend on the processing

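The 5020 calls became 3085 to 5672 when single SWAT or EWAT libraries were left out, with 1595 to 2780 higher in SWAT, 1480 to 2892 higher in EWAT and 1428 to 1758 called at least 2-fold. Without NWAT replicate 1 or 2, alternatives added after seeing the data, 4626 and 4633 were called. Library totals gave 1344 genes higher in SWAT and 5082 in EWAT. On log2(FPKM + 1) values these were 1219 and 4849, with 864 at least 2-fold, and on log2(FPKM + 0.1) values 1249 and 4893. Both lack the TMM factors. DESeq2 called 4159. Removing the length trend, added after seeing the data, gave 5338. Same-numbered libraries showed little shared deviation (correlations of 0.000549 for SWAT and EWAT, 0.0375 for SWAT and NWAT, and 0.11 for EWAT and NWAT). With 2 libraries a depot these values cannot decide whether the replicate numbers pair animals, which the sources used here do not state. A fit with the replicate block called 5043 genes, 2482 higher in SWAT and 2561 in EWAT. Of 246 called genes under the naming rule, 203 lost their call in none of the alternatives in which they were tested. Alternatives that filtered a gene out, and reversals of direction, were not counted as losses. Smo reversed to -0.0128 on log2(FPKM + 1) and -0.0132 on log2(FPKM + 0.1) values, and Gli3 to -0.2098 with the length trend removed. The cause was not tested. With 2 libraries a side, the spread within a depot rests on few values.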

Other observations

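Several genes outside the lists were at or near 0 in 1 depot. Mmd2, a membrane protein of the progestin and adipoQ receptor family, had 0 counts in both SWAT libraries and 647 and 750 in EWAT, which is at least 198-fold higher in EWAT. Adcy8, a calcium-stimulated adenylyl cyclase, had 0 counts in SWAT and 51 and 43 in EWAT. Cadps, a protein of dense-core vesicle release, stood at 0.11 and 0.105 CPM in SWAT and 32.6 and 29.4 CPM in EWAT. In the other direction Trhde, the enzyme that degrades thyrotropin-releasing hormone, had 57 and 84 counts in SWAT and 0 in EWAT. Mlana, a melanocyte protein, had 32 and 57 counts in SWAT and 0 in EWAT. Gm4724 had 239 and 46 counts in SWAT and 0 in EWAT, and was not called (edgeR adjusted p = 0.0896).

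Neighbouring genes were sometimes called together. Among tested genes in chromosome order, 23 runs of at least 5 neighbours were called in 1 direction. The antigen presentation genes H2-DMb1, Psmb9, Tap1, Psmb8 and Tap2 on chromosome 17 (34153191 to 34216321) formed 1 run higher in SWAT, with a median log2 fold change of 0.84, and the call of H2-DMb1 was lost without SWAT replicate 1 and without SWAT replicate 2. A run of 5 genes on chromosome 8 (61511431 to 64206008), from Palld to Tll1, was higher in SWAT with a median of 3.01. These runs were picked after their values were seen.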
